A study of Cricetiscus sungorus with 12 samples.

Results

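The hypothalamic expression of 10 genes of glucose, lactate and ketone body use was described in Djungarian hamsters. The genes were set by a list of mouse GeneIDs whose rule uses no measured value, though the list was drawn up with earlier results of these data known, and they make up 10 of the 17191 GeneIDs in the files. They are the glucose transporters Slc2a1 (GeneID 20525) and Slc2a3 (20527), the monocarboxylate transporters Slc16a1 (20501), Slc16a3 (80879) and Slc16a7 (20503), the pyruvate dehydrogenase kinases Pdk1 (228026), Pdk2 (18604) and Pdk4 (27273), and the ketone body enzymes Bdh1 (71911) and Oxct1 (67041). All 10 were detected in all 12 hamsters and passed the count filter of every comparison.

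Polyadenylated RNA of the hypothalamus of 12 adult hamsters was sequenced, 1 library per hamster, with 4 hamsters in each of 3 groups. LP-NT hamsters were kept in long photoperiod with 16 h of light and 8 h of darkness and were classed as normothermic, without a recorded body temperature. SP-NT and SP-HT hamsters were acclimated to short photoperiod with 8 h of light and 16 h of darkness, SP-NT hamsters being normothermic and SP-HT hamsters hypothermic in spontaneous daily torpor. All hamsters in short photoperiod had been implanted with temperature transmitters under anesthesia, and the LP-NT hamsters had not. Photoperiod and implantation therefore cannot be told apart. All hamsters came from one breeding colony and were sampled at about ZT 4, so torpor was sampled at a single time of day. LP-NT and SP-NT each held 2 males and 2 females, and SP-HT held 3 males and 1 female. Each replicate number below is the number of an individual hamster within its group, so the errors describe the spread between animals.

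Glucose enters the brain mainly through GLUT1, the product of Slc2a1, in the endothelium of the blood-brain barrier and in glia, and it enters neurons mainly through GLUT3, the product of Slc2a3. Monocarboxylate transporters carry lactate, pyruvate and ketone bodies across membranes, MCT1 mainly in endothelium and glia, MCT4 mainly in astrocytes and MCT2 mainly in neurons. Pyruvate dehydrogenase kinases inhibit the entry of pyruvate into the citric acid cycle, while BDH1 and OXCT1 carry out the first steps of ketone body use in mitochondria. During fasting and torpor the body as a whole shifts from glucose towards fat and ketone bodies.

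Each library held 20204979 to 24186918 expected counts in total, with a median of 22548964. The ranges were 21732663 to 22710560 in LP-NT, 22860110 to 24186918 in SP-NT and 20204979 to 23018123 in SP-HT. All 18 pairs of samples within a group differed by more than counting noise, so all were kept as separate replicates. The hypothalamic peptide genes Avp, Pomc, Npy, Trh, Cartpt and Sst were each found in all samples, from 10.2 CPM for the lowest value of Npy to 312 CPM for the highest value of Avp. SP-NT replicate 19 is labelled male, but 2 of the 3 GeneIDs that had at least 100 counts in the 6 other males and at most 10 in the 5 females were at 0 in it. A GeneID related to the cold-inducible Rbm3, Rbm3-ps (100043257), whose reads may be shared with a near-identical copy, had on average 3.10 CPM in the samples labelled SP-HT, 15.1 CPM in SP-NT and 14.9 CPM in LP-NT, every value of SP-HT being below those of the normothermic groups. The name Rbm3-ps was tied to its GeneID by the rounded size and adjusted p of its tabulated torpor change, with the sign left out. The size of its change is therefore no independent evidence. Changes that the authors tabulated from these same hamsters for 59 genes were used to tie further names to GeneIDs. In all 59 the tabulated sign for torpor is opposite to that obtained from the deposited labels. Slc2a1 and Slc2a3 are 2 of these 59 genes, and the authors thus give Slc2a3 as higher in torpor. For photoperiod the tabulated changes were matched with their sign to the samples labelled SP-NT and LP-NT, and the body temperatures listed by hamster number were low for the hamsters labelled SP-HT and normal for those labelled SP-NT. The source of the opposite sign was not tested. All results below follow the deposited labels. If the labels SP-HT and SP-NT stood for each other, every direction between them would turn, and the comparisons of each with LP-NT would change places. LP-NT replicate 01 stood apart from the rest of its group over all genes.

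Corrected for transcript length, Slc2a1 and Pdk2 were the most abundant of the 10 genes and Slc16a3 and Pdk4 the least abundant. Slc2a1 ranged from 149 to 199 TPM (a length- and depth-corrected abundance) over the 12 hamsters and Pdk2 from 128 to 152 TPM, so these neighbours overlapped. Oxct1 followed with 73.7 to 93.9 TPM and Slc2a3 with 58.2 to 84.5 TPM, again with overlapping ranges. Pdk1 with 30.3 to 48.9 TPM and Slc16a1 with 32.3 to 42.3 TPM formed a middle pair, all below the lowest Slc2a3 value. Bdh1 with 18.1 to 23.8 TPM and Slc16a7 with 11.3 to 21.1 TPM overlapped each other and were below all values of Slc16a1. Pdk4 had 5.02 to 8.31 TPM and Slc16a3 had 4.04 to 7.32 TPM. The ranges of neighbours in this order did not overlap between Pdk2 and Oxct1, between Slc2a3 and Pdk1, between Slc16a1 and Bdh1 and between Slc16a7 and Pdk4, while the other neighbours overlapped. Among the kinases, Pdk2 made up 70.4% to 78.0% of the summed TPM of Pdk1, Pdk2 and Pdk4 in the 12 hamsters, Pdk1 17.3% to 25.4% and Pdk4 2.81% to 4.61%.

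**Figure D1:**
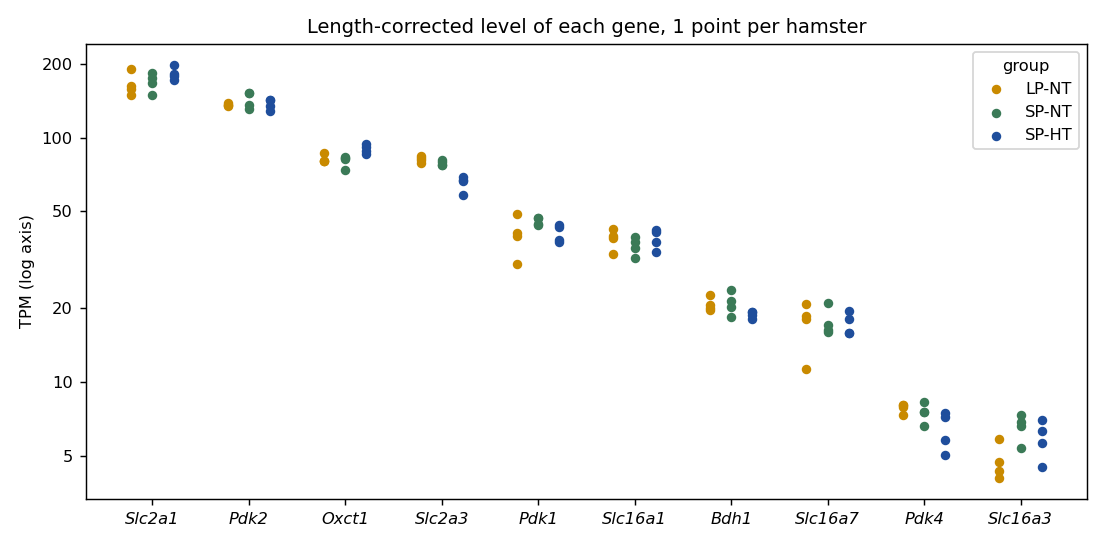
Length-corrected level (TPM, log axis) of the 10 genes, ordered by mean level, with 1 point per hamster and 1 colour per group. Slc2a1 reached 199 TPM while Slc16a3 stayed at 7.32 TPM or less, and the SP-HT points of Slc2a3 lay below those of both other groups.

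The comparison of SP-HT with SP-NT asks which genes differ between torpor and normothermia in the same photoperiod. Of the 10 genes, 1 passed the edgeR quasi-likelihood test, the glucose transporter gene Slc2a3, which was lower in SP-HT. That is 1 of 10 against 2.40% of all 16195 genes tested, 1.90% being lower. The highest values of Oxct1 and Slc2a1 were in SP-HT, but neither passed the test. The other 7 genes had overlapping groups and log2(FC) between -0.20 and 0.10. DESeq2 called 2 of the 10, Slc2a3 lower and Oxct1 higher, where it called 6.28% of all genes, 3.73% lower and 2.55% higher.

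Slc2a3, which encodes the main glucose transporter of neurons, had normalized counts (CPM, scaled to library size with TMM factors) of 97.0, 100.0, 97.2 and 95.1 in SP-NT replicates 19, 36, 37 and 38. In SP-HT replicates 02, 10, 26 and 33 it had 73.9, 88.7, 84.6 and 80.0 CPM. Every SP-HT hamster was below every SP-NT hamster, and SP-HT replicate 02 was the lowest. The mean was 97.3 ± 2.02 CPM for SP-NT and 81.8 ± 6.36 CPM for SP-HT (SD, n = 4 each), a log2(FC) of -0.25 with a standard error of 0.0576 and a 95% interval from -0.38 to -0.13. This corresponds to 0.839 times the SP-NT level (edgeR with Benjamini-Hochberg adjustment over all genes, adjusted p = 0.0485), close to the threshold of 0.05. Among the 389 genes called in this comparison, with a median log2(FC) size of 0.51, 19 had a smaller size than Slc2a3. The call was lost with median-of-ratios size factors, with effective length as an offset, with sex as a covariate and in 7 of 8 fits that left out a hamster. Over the 8 fits the log2(FC) was between -0.29 and -0.20, and the fit without SP-HT replicate 10, at -0.29, kept the call (edgeR adjusted p = 0.0489). Without SP-NT replicate 19, whose sex label is in doubt, it was -0.25 (edgeR adjusted p = 0.113). Within the sexes as labelled, SP-HT males had 80.0 to 88.7 CPM against 95.1 and 97.0 CPM in SP-NT males, and the SP-HT female had 73.9 CPM against 97.2 and 100.0 CPM in SP-NT females. In a bulk sample, fewer neurons and less Slc2a3 RNA per neuron cannot be told apart.

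Slc2a1, the glucose transporter gene of endothelium and glia, had 134, 133, 117 and 129 CPM in SP-NT replicates 19, 36, 37 and 38. It had 139, 151, 146 and 135 CPM in SP-HT replicates 02, 10, 26 and 33. The groups did not overlap in CPM, although the lowest SP-HT and the highest SP-NT hamster were close. In TPM they overlapped, with 149 to 184 TPM in SP-NT and 173 to 199 TPM in SP-HT. The means were 128 ± 8.06 CPM in SP-NT and 143 ± 7.17 CPM in SP-HT (SD, n = 4 each), with a log2(FC) of 0.15 and a 95% interval from 0.03 to 0.27 (edgeR adjusted p = 0.182). The length-corrected ratio of Slc2a3 to Slc2a1 was 0.327 to 0.387 in SP-HT, 0.437 to 0.532 in SP-NT and 0.414 to 0.564 in LP-NT, so each SP-HT hamster had a lower ratio than any normothermic hamster. The ratio was chosen with the values known and was not tested.

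Oxct1 encodes the mitochondrial transferase that activates acetoacetate, the committed step of ketone body use. Its CPM values were 88.2, 91.9, 91.2 and 80.9 in SP-NT replicates 19, 36, 37 and 38 and 101, 106, 109.9 and 96.5 in SP-HT replicates 02, 10, 26 and 33. Every SP-HT hamster was above every SP-NT hamster. The means were 88.0 ± 5.02 CPM in SP-NT and 103 ± 5.94 CPM in SP-HT (SD, n = 4 each), 1.17 times the SP-NT level, with a log2(FC) of 0.23, a standard error of 0.0580 and a 95% interval from 0.10 to 0.36. The edgeR adjusted p was 0.0668, and the DESeq2 adjusted p was 0.00952. Within the sexes as labelled, SP-HT males had 96.5 to 109.9 CPM against 80.9 and 88.2 CPM in SP-NT males, and the SP-HT female had 101 CPM against 91.2 and 91.9 CPM in SP-NT females.

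Bdh1, which encodes the dehydrogenase that turns beta-hydroxybutyrate into acetoacetate one step before OXCT1, showed no such separation. It had 18.8 to 22.3 CPM in SP-NT and 19.6 to 21.2 CPM in SP-HT, with a log2(FC) of -0.02 and a 95% interval from -0.18 to 0.15 (edgeR adjusted p = 0.932). In TPM, the ratio of Oxct1 to Bdh1 was 4.58 to 5.06 in SP-HT, 3.10 to 4.50 in SP-NT and 3.81 to 4.09 in LP-NT. The SP-HT hamsters were thus above all normothermic hamsters in this ratio. In TPM, Bdh1 itself had 18.1 to 19.3 in SP-HT, 18.4 to 23.8 in SP-NT and 19.7 to 22.7 in LP-NT. Between SP-HT and LP-NT, the TPM ranges of Bdh1 thus did not overlap, while those of Oxct1 did. The ratio contains Oxct1, described above as separating SP-HT from SP-NT, so its separation adds no support. It was not tested.

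In CPM, the non-overlapping groups of Slc2a3, Slc2a1 and Oxct1 are 3 of 10 genes, where 12.1% of all genes tested did not overlap between SP-HT and SP-NT. An unadjusted p under 0.05 was also reached by these 3 of 10 genes and by 18.4% of all genes. The median log2(FC) was -0.02 over the 10 genes and -0.003 over all genes, and its median size was 0.11 over the 10 and 0.12 over all.

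**Figure D2:**
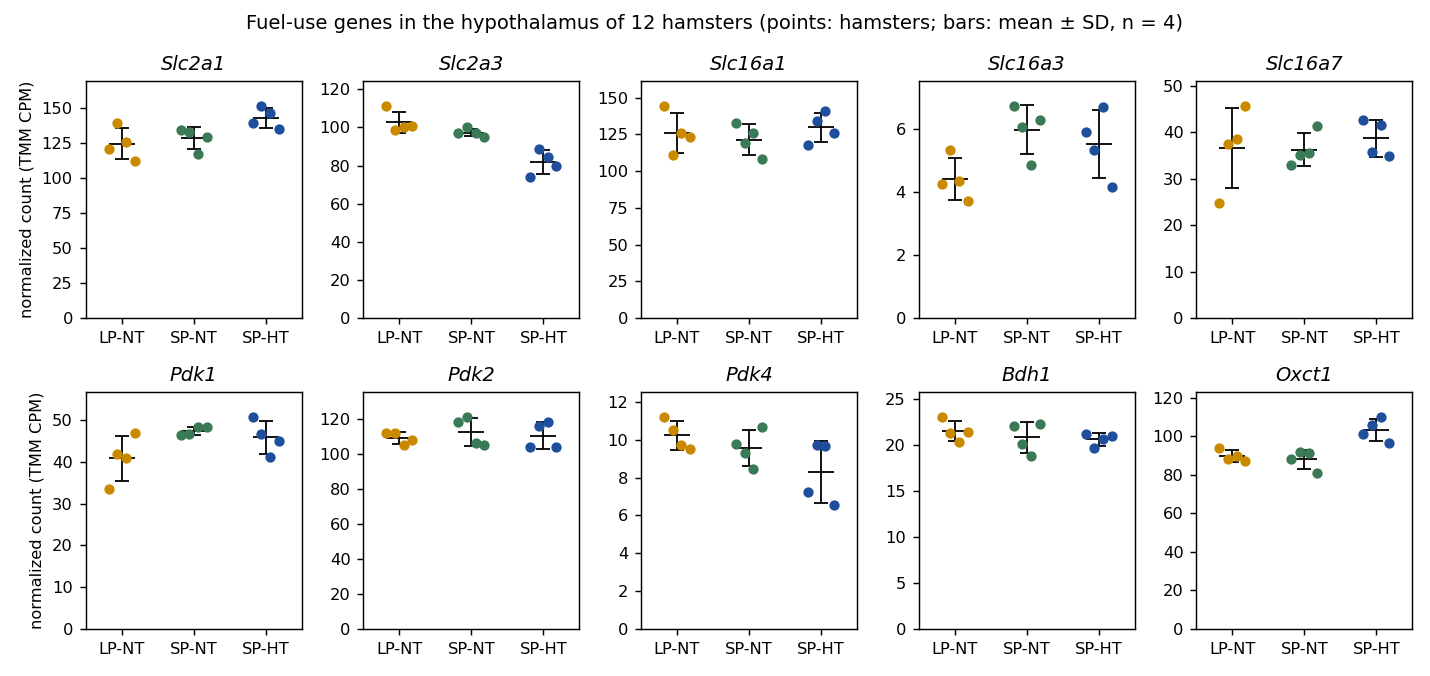
Normalized counts (TMM CPM, axes from 0) of the 10 genes, with 1 point per hamster and bars for the mean ± SD (n = 4) of each group. The SP-HT points of Slc2a3 (73.9 to 88.7 CPM) lay below, and those of Oxct1 (96.5 to 109.9 CPM) above, all normothermic points.

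The monocarboxylate transporters did not pass the test between SP-HT and SP-NT. Slc16a1, the MCT1 gene, had 108 to 133 CPM in SP-NT and 118 to 141 CPM in SP-HT, with a log2(FC) of 0.09 and a 95% interval from -0.07 to 0.25 (edgeR adjusted p = 0.535). Slc16a7, the gene of the neuronal MCT2, had 32.9 to 41.2 CPM in SP-NT and 34.8 to 42.6 CPM in SP-HT, with a log2(FC) of 0.10 and an interval from -0.11 to 0.30 (edgeR adjusted p = 0.625). Slc16a3, the MCT4 gene, had 4.88 to 6.73 CPM in SP-NT and 4.17 to 6.72 CPM in SP-HT, with a log2(FC) of -0.12 and an interval from -0.47 to 0.24 (edgeR adjusted p = 0.750). Slc16a3 rested on 82.0 to 164 counts per library, for which counting alone gives an error of 9.10% of a single value, against 2.17% for Slc2a3 and 2.18% for Oxct1.

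Of the kinases, Pdk4 is known as the form induced by fasting and fatty acids in muscle, heart and liver. Its values were 9.77, 9.32, 8.46 and 10.7 CPM in SP-NT replicates 19, 36, 37 and 38, and 7.22, 9.74, 9.68 and 6.57 CPM in SP-HT replicates 02, 10, 26 and 33. SP-HT replicates 02 and 33 were below all SP-NT hamsters and replicates 10 and 26 were among them. The log2(FC) was -0.20 with a 95% interval from -0.52 to 0.11 (edgeR adjusted p = 0.490). Pdk1, induced by hypoxia in many cells, had 46.5 to 48.3 CPM in SP-NT and 41.2 to 50.7 CPM in SP-HT, with a log2(FC) of -0.05 and an interval from -0.20 to 0.10 (edgeR adjusted p = 0.741). Pdk2, the broadly expressed form, had 105 to 121 CPM in SP-NT and 104 to 118 CPM in SP-HT, with a log2(FC) of -0.03 and an interval from -0.17 to 0.11 (edgeR adjusted p = 0.868).

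**Figure D3:**
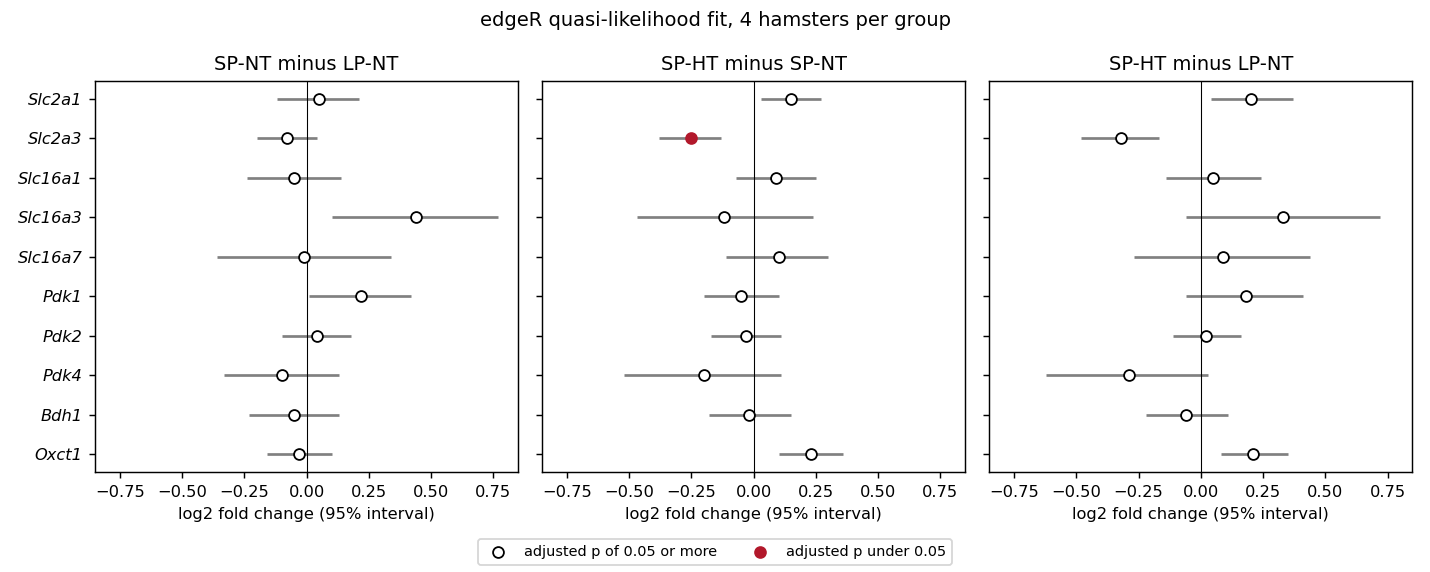
log2 fold change (x axis) of the 10 genes in the 3 comparisons, with bars for the 95% interval and a filled point for an adjusted p under 0.05 (edgeR, 4 hamsters per group). The only filled point is Slc2a3 for SP-HT minus SP-NT at -0.25, and the interval of Oxct1 in that panel runs from 0.10 to 0.36.

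The comparison of SP-NT with LP-NT sets short against long photoperiod in hamsters classed as normothermic, and at the same time implanted against non-implanted hamsters. None of the 10 genes passed the test in edgeR or in DESeq2, where 0.0370% and 0.204% of 16199 genes were called. At an unadjusted edgeR p under 0.05 there were 2 of 10 genes against 4.84% of all. None of the 10 had groups without overlap, against 3.44% of all genes. The 2 genes were Slc16a3 and Pdk1. Slc16a3, the astrocytic lactate transporter gene, had 4.25, 5.34, 4.37 and 3.74 CPM in LP-NT replicates 01, 02, 03 and 05 and 6.73, 6.08, 4.88 and 6.29 CPM in SP-NT replicates 19, 36, 37 and 38. Only SP-NT replicate 37 reached into the LP-NT range. The log2(FC) was 0.44 with a standard error of 0.151 and a 95% interval from 0.10 to 0.77 (edgeR adjusted p = 0.913), and it was 0.42 without LP-NT replicate 01. Pdk1 had 33.6, 41.9, 40.8 and 46.9 CPM in LP-NT and 46.5, 46.7, 48.3 and 48.3 CPM in SP-NT in the same order of replicates. LP-NT replicate 01 was the lowest and replicate 05 lay within the SP-NT range, and the log2(FC) was 0.22 with an interval from 0.01 to 0.42 (edgeR adjusted p = 0.913). Without LP-NT replicate 01 it was 0.13 (edgeR adjusted p = 0.996).

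For the genes that separated SP-HT from SP-NT in CPM, the normothermic groups overlapped. Slc2a3 had 111, 98.9, 100.1 and 101 CPM in LP-NT replicates 01, 02, 03 and 05, and the log2(FC) of SP-NT against LP-NT was -0.08 with a 95% interval from -0.20 to 0.04 (edgeR adjusted p = 0.913). LP-NT replicate 01 was the highest, and without it the log2(FC) was -0.04 (edgeR adjusted p = 0.996). Oxct1 had 93.8, 88.0, 89.8 and 87.0 CPM in LP-NT, and the log2(FC) was -0.03 with an interval from -0.16 to 0.10 (edgeR adjusted p = 0.951). For Slc2a1 the LP-NT values were 121, 139, 126 and 112 CPM, with a log2(FC) of 0.05 and an interval from -0.12 to 0.21 (edgeR adjusted p = 0.945). The remaining 5 genes had log2(FC) between -0.10 and 0.04. Slc16a7 was the most variable of them in LP-NT, with 24.7, 37.4, 38.6 and 45.5 CPM in replicates 01, 02, 03 and 05 against 32.9 to 41.2 CPM in SP-NT, and its interval from -0.36 to 0.34 was the widest of the 10. Without LP-NT replicate 01 its log2(FC) moved from -0.01 to -0.16 (edgeR adjusted p = 0.996).

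The comparison of SP-HT with LP-NT joins the differences in photoperiod, in body temperature and in transmitter implantation. It shares its SP-HT samples with the comparison above, so it is no independent repeat. In edgeR 0 of 10 genes passed the test, where 1.37% of 16157 genes were called, with 3 of 10 at an unadjusted p under 0.05 against 15.1% of all. DESeq2 called 2 of 10, Slc2a3 lower and Oxct1 higher, where it called 4.37% of all genes, 2.87% lower and 1.50% higher. Slc2a3 was at 0.800 times the LP-NT level, with no overlap, a log2(FC) of -0.32, a standard error of 0.0703 and a 95% interval from -0.48 to -0.17 (edgeR adjusted p = 0.0531, DESeq2 adjusted p = 0.00370). Without LP-NT replicate 01 it was -0.29 (edgeR adjusted p = 0.0698). Oxct1 was at 1.16 times the LP-NT level, also with no overlap in CPM, with a log2(FC) of 0.21 and an interval from 0.08 to 0.35 (edgeR adjusted p = 0.125, DESeq2 adjusted p = 0.0262). In TPM the highest LP-NT value of Oxct1, 86.4 in replicate 05, lay above the lowest SP-HT value, 85.8 in replicate 33. In CPM, groups without overlap were seen for these 2 of 10 genes and for 10.6% of all genes. Slc2a1 had a log2(FC) of 0.20 with an interval from 0.04 to 0.37 and overlapping groups (edgeR adjusted p = 0.216). For Slc16a3 the log2(FC) was 0.33 with an interval from -0.06 to 0.72, and for Pdk4 it was -0.29 with an interval from -0.62 to 0.03. The other 5 genes had log2(FC) between -0.06 and 0.18. Without LP-NT replicate 01, the log2(FC) of Pdk1 was 0.09 in place of 0.18, that of Slc16a1 0.12 in place of 0.05 and that of Slc16a7 -0.06 in place of 0.09.

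**Figure D4:**
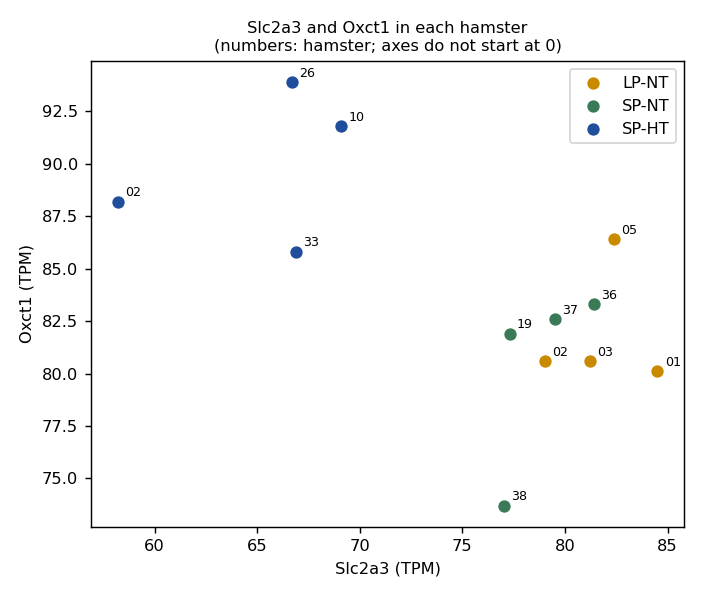
Slc2a3 against Oxct1 (both TPM, axes not from 0) with 1 numbered point per hamster. The 4 SP-HT hamsters sit at 58.2 to 69.1 TPM of Slc2a3, below all 8 normothermic hamsters at 77.0 TPM or more, while Oxct1 of LP-NT replicate 05 (86.4 TPM) exceeds that of SP-HT replicate 33 (85.8 TPM).

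Slc2a3 and Oxct1 were at about equal length-corrected levels in normothermic hamsters. Their TPM ratio was 0.954 to 1.05 in LP-NT, 0.944 to 1.04 in SP-NT and 0.660 to 0.780 in SP-HT. The 8 normothermic hamsters thus formed one range around parity, and the 4 SP-HT hamsters a lower one. The ratio combines genes already described above as separating SP-HT from SP-NT in opposite directions, so its separation adds no support. It was not tested.

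Among the 13939 other GeneIDs with a mean of at least 1 CPM, those whose log2 CPM followed Slc2a3 most closely over the 12 hamsters were 319583 (Pearson r = 0.971, Spearman rho = 0.888) and 77805 (r = 0.964, rho = 0.930), whose names the files do not give. GeneID 77805 had 27.6, 26.7 and 19.7 CPM on average in LP-NT, SP-NT and SP-HT, the same order of groups as Slc2a3. The correlations are descriptive, since the 12 hamsters fall into groups that differ in Slc2a3.

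RSEM's effective length of a GeneID moves with the share of reads that its longer and shorter transcripts hold. The 10 genes joined between 3 transcripts (Slc16a3 and Pdk4) and 17 transcripts (Slc16a7). By limma on log2 effective length, 0 of 10 genes passed the test in each of the 3 comparisons. Of all genes tested, 0% (photoperiod), 0.130% (torpor) and 0.0983% (SP-HT against LP-NT) were called. An unadjusted limma p under 0.05 was reached by 0 of 10 genes in any of them. Over all genes it was reached by 572 of 12318, 1537 of 12289 and 1473 of 12213. With 10 genes, 0 is too few to set the members apart from these shares. Oxct1 came from 7 components of the assembly and Slc2a3 from 4, so both are sums over several assembled loci or fragments that share a best mouse match.

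**Figure D5:**
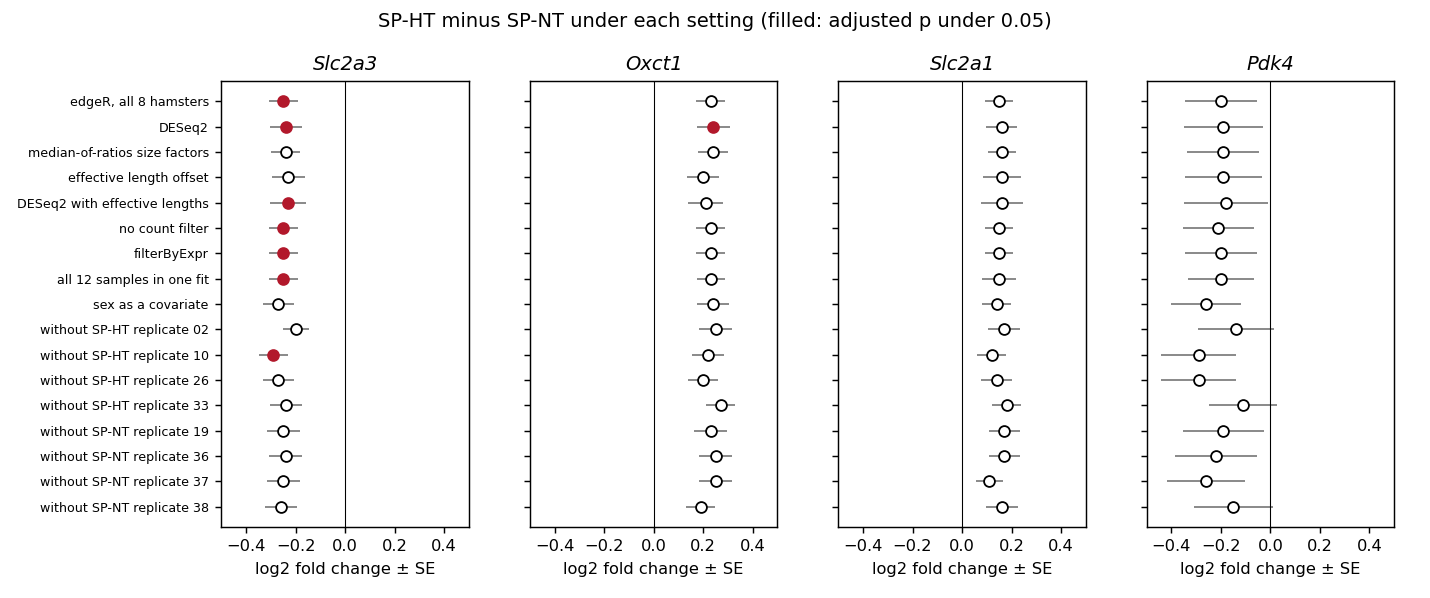
log2 fold change of SP-HT against SP-NT (x axis, points with bars of ± 1 standard error) for Slc2a3, Oxct1, Slc2a1 and Pdk4 under each setting of the analysis and with each hamster left out. The direction was the same in all settings for these 4 genes, while filled points, an adjusted p under 0.05, occur for Slc2a3 in 7 of 17 settings and for Oxct1 in DESeq2.

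Of 93 further genes of fuel use in lists on transport, glycolysis, lactate, pyruvate, ketone synthesis, fatty acid oxidation, fuel sensing and glycogen, 4 could be tied to a GeneID. Of these 4, 0 passed the test in any of the 3 comparisons in edgeR or in DESeq2, with 0 at an unadjusted p under 0.05 in edgeR. Txnip encodes a glucose-responsive inhibitor of glucose uptake and had 25.7 to 32.6 CPM in SP-NT and 29.1 to 35.9 CPM in SP-HT, with a log2(FC) of 0.15 and a 95% interval from -0.04 to 0.34 (edgeR adjusted p = 0.370). Slc2a4, the gene of the insulin-responsive GLUT4, had 0.950 to 3.98 CPM over the 12 hamsters and a log2(FC) of 0.21 (adjusted p = 0.664). Slc2a5, the fructose transporter gene that is a microglial marker in brain, had 2.36 to 3.94 CPM and a log2(FC) of -0.22 (edgeR adjusted p = 0.547), and Slc2a6 had 21.2 to 29.8 CPM and a log2(FC) of -0.04 (edgeR adjusted p = 0.802). In SP-NT against LP-NT, Slc2a6 had the smallest p of the 4, with a log2(FC) of 0.18 (edgeR adjusted p = 0.913).

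Of 65 markers of other cell types, 2 could be tied to a GeneID, both of tanycytes. Vim had 94.8 to 124 CPM in LP-NT, 56.1 to 109 CPM in SP-NT and 66.9 to 87.1 CPM in SP-HT, and it was lower in SP-HT than in LP-NT (log2(FC) = -0.60, edgeR adjusted p = 0.0293) but did not pass the test between SP-HT and SP-NT (log2(FC) = -0.28, adjusted p = 0.408). Dio2 had 4.76 to 6.17 CPM in SP-NT and 4.58 to 6.04 CPM in SP-HT (log2(FC) = -0.11, edgeR adjusted p = 0.724). The part of cell composition in the levels of Slc2a3, Slc2a1 and Oxct1 was not tested.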

How the data were processed

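Hypothalamic mRNA of 12 hamsters was sequenced as read pairs of a directional library. The authors pooled all reads into a de novo assembly, kept transcripts with a best mouse protein match, grouped them by mouse GeneID and quantified each sample with RSEM 1.3.1 on Bowtie 1.3.0 alignments. The deposited expected counts, estimated by RSEM, are not normalized, and the deposited TPM and FPKM are corrected for length and depth. TPM was used for levels between genes and FPKM was not used. A GeneID can join isoforms and hamster paralogs.

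Expected counts were rounded, genes were kept if the 8 libraries compared together had 10 counts or more, and groups were compared with edgeR 4.0.16 (quasi-likelihood test, TMM, Benjamini-Hochberg over all genes, threshold 0.05) in R 4.3.3, without covariates. CPM used TMM factors over all 12 samples. DESeq2 1.42.0, other size factors, length offsets, other filters, all 12 samples in one fit, sex as a covariate and leaving out each hamster were the alternatives. Effective lengths were compared with limma 3.58.1 where a GeneID had several transcripts and averaged 50 counts or more. The scripts were tested on simulated data. There edgeR recovered a 1.25-fold change in 12% of 50 changed genes for SP-NT against LP-NT. For SP-HT it recovered 28% against SP-NT and 4% against LP-NT. A gene that did not pass the test is therefore not shown to be unchanged. Differences are first group minus second group. The 95% intervals use the standard error of the fit. Counting error is 100 divided by the square root of the mean count and covers counting only.

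The members and lists were chosen with earlier results of these data known. All 10 members were reported, with the genes of the lists that had a GeneID, and the GeneIDs most correlated with a called member. The names of the members came with their GeneIDs. The files pair no names with GeneIDs, so other names were taken from tabulated changes of 61 genes by equality with DESeq2 results using effective lengths, the sign of torpor left out, which gave 59 names. For all 59 the tabulated sign of torpor was opposite to that computed from the deposited labels. Rbm3-ps was named apart from these, by the rounded size and adjusted p of its tabulated torpor change, with the sign left out. The size of the change of these other named genes and of Rbm3-ps is for this reason no independent evidence. No genome positions or sequences were used here.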

Additional observations from a re-analysis of the deposited data

Results flagged for a closer look

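Within the groups of 4 hamsters, 60 sets of values (normalized count and effective length of the 10 genes) were examined for a hamster far from the other 3. In 5 of the 60 sets 1 was found, where chance gives about 1 in 20 sets. The 5 were not tested against this rate and are not shown to exceed it. Slc2a3 had 111 CPM in LP-NT replicate 01 and 98.9 to 101 CPM in the other LP-NT hamsters. The effective length of Slc16a1 was 9214 bases in LP-NT replicate 02 and 8837 to 8892 bases in the others of the group. Pdk4 had an effective length of 3446 bases in LP-NT replicate 03, where the others had 3601 to 3619 bases, and of 3443 bases in SP-NT replicate 36, where the others had 3607 to 3618 bases. Bdh1 had an effective length of 2626 bases in LP-NT replicate 05 and 2892 to 2946 bases in the others.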

How the results depend on the processing

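The log2(FC) of Slc2a3, Oxct1, Slc2a1 and Pdk4 in torpor kept its direction in all 8 alternatives and in all 8 fits without 1 hamster. For SP-HT against SP-NT the number of the 10 genes called was 1, 2 in DESeq2, and 0 with median-of-ratios size factors (Slc2a3 adjusted p = 0.0602), effective length offset (0.133) or sex as a covariate (0.0706). Without 1 hamster it was 0 to 1. Only the fit without SP-HT replicate 10 called Slc2a3 (edgeR adjusted p = 0.0489), the others reaching up to 0.129. Over the 8 alternatives Slc2a3 had adjusted p from 0.00783 to 0.133 and was called in 5. Oxct1 was called in 1 (log2(FC) 0.20 to 0.24), with adjusted p from 0.0536 to 0.159 without 1 hamster. For SP-HT against LP-NT the number called was 0, 2 in DESeq2, and 1 each in DESeq2 with effective lengths, all 12 samples in one fit and sex as a covariate. The cause of these differences was not tested.

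The direction turned for genes that passed no test. With the effective length offset and in DESeq2 with effective lengths, Slc16a7 (0.01) and Slc2a5 (0.04) turned in SP-NT against LP-NT and Slc2a6 (0.05 and 0.06) in SP-HT against SP-NT. Leaving out 1 hamster gave, for SP-NT against LP-NT, ranges of -0.16 to 0.11 for Slc16a7, -0.11 to 0.02 for Slc16a1, -0.05 to 0.01 for Oxct1 and -0.002 to 0.10 for Slc2a1. For SP-HT against SP-NT the ranges were -0.06 to 0.01 for Pdk2, -0.06 to 0.02 for Bdh1 and -0.09 to 0.01 for Slc2a6. For SP-HT against LP-NT they were -0.004 to 0.06 for Pdk2, -0.06 to 0.21 for Slc16a7, -0.003 to 0.12 for Slc16a1 and -0.01 to 0.12 for Txnip.

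Over all genes, SP-HT against SP-NT called 389 genes, but 1017 in DESeq2, 759 in DESeq2 with effective lengths, 146 with the effective length offset, 242 with sex as a covariate and 104 to 318 without 1 hamster, and 21.1% of the calls were higher and 78.9% lower in the samples labelled SP-HT, against 40.6% and 59.4% in DESeq2 and 39.9% and 60.1% in DESeq2 with effective lengths. If the labels SP-HT and SP-NT stood for each other, the higher and lower shares would change places. SP-HT against LP-NT called 221 genes, but 706, 623, 102 and 612 in DESeq2, DESeq2 with effective lengths, the length offset and the fit of all 12 samples, and 55 to 200 without 1 hamster. SP-NT against LP-NT called 6 genes, but 33 and 32 in DESeq2 without and with effective lengths.

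No paired analysis was possible because each hamster was sampled once, in a single group. The number 02 names different animals in SP-HT and LP-NT. Depth limited Slc16a3 and Pdk4 most.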

Other observations

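LP-NT replicate 01 held the highest or the lowest value of its group in 7 of the 10 genes, with the highest values of Slc2a3 (111 CPM) and Slc16a1 (144 CPM) and the lowest of Slc16a7 (24.7 CPM) and Pdk1 (33.6 CPM). Over 13940 GeneIDs with a mean of at least 1 CPM it was at such an extreme in 73.0%, against 36.4% to 54.1% for the other 3 LP-NT hamsters.

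With the means of the 3 groups taken out, the lowest correlations between pairs of the 10 genes over the 12 hamsters were those of Slc16a1 with Pdk1 (Pearson r = -0.683), of Slc2a3 with Pdk1 (r = -0.660) and of Slc16a1 with Slc16a7 (r = -0.620). The highest were those of Slc16a7 with Pdk1 (r = 0.782), of Slc2a1 with Slc16a3 (r = 0.773) and of Slc2a3 with Slc16a1 (r = 0.724). These values were picked after all pairs had been computed and are given as a description. LP-NT replicate 01 is at an extreme of its group in Slc16a1, Pdk1, Slc2a3 and Slc16a7.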
